A study of Mus musculus with 22 samples.

Results

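The 32 genes described here encode chaperones, folding enzymes, degradation and transport factors of the endoplasmic reticulum, with XBP1 and the sensors of the unfolded protein response. They were taken by gene symbol from a list that was drawn up with earlier results of these data known. The rule itself uses no measured value. All 32 were found among the 45777 genes of the count tables and passed the filter on low counts in both cohorts. Liver polyA RNA of male wild-type C57BL/6J mice was sequenced in 22 libraries, in 2 cohorts of 11, to profile livers on a normal or a disease diet with and without DTMB. The HFD cohort has 4 libraries of mice fed a high-fat diet (HFD) with DTMB, 4 of mice on HFD with vehicle and 3 of mice on normal diet with vehicle. The MCD cohort has 3 libraries of mice fed a methionine- and choline-deficient (MCD) diet with DTMB, 4 on MCD diet with vehicle and 4 on normal diet with vehicle. HFD livers are labelled as metabolic dysfunction-associated steatotic liver disease (MASLD) and MCD livers as steatohepatitis (MASH). The compound DTMB, for which the labels give a code name only, was dosed orally, 10 mg/kg each day. The labels used here give neither the ages of the mice nor the length of feeding, and say of replicates only that they are biological, so p-values measure the spread between these samples.

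Secreted and membrane proteins fold in the endoplasmic reticulum, and the hepatocyte, which makes most plasma proteins, carries a large folding capacity. When unfolded proteins accumulate there, the membrane sensors IRE1 (gene Ern1), PERK (Eif2ak3) and ATF6 (Atf6) signal to the nucleus and the translation machinery. IRE1 splices the Xbp1 mRNA into a form that encodes an active transcription factor, PERK slows translation and favours ATF4, and ATF6 is cleaved to release a transcription factor. XBP1 and ATF6 are known to raise chaperone and degradation genes by way of the endoplasmic reticulum stress elements in their promoters. Counts per gene do not separate spliced from unspliced Xbp1 mRNA, and none of the values below is a measure of sensor activity.

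Promoter elements of this kind are the sequence feature the response is best known for, and are shown first. Promoters from 250 bases before to 50 bases after the annotated start were taken from the RefSeq table of GRCm38.p6 and matched for 27 of the 32 genes, in 28 windows (not Hyou1, Manf, Derl1, Sec61a1 and Atf6). The classical element ERSE, written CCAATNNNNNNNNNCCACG, was searched on both strands, as were ERSE-II, written ATTGGNCCACG, the unfolded protein response element UPRE, written TGACGTGG, and the short core CCACG, which both ERSE and ERSE-II contain. ERSE was found in 9 of 28 member windows (32.1%), against 39 of all 32851 windows of the table (0.119%). ERSE-II was found in 7.14% of the member windows and 0.0365% of all windows, UPRE in 3.57% and 0.676%, and the short core in 82.1% and 32.8%. Chaperone and degradation genes are known for such elements, so the larger shares in member windows follow largely from the choice of genes. They are not a result of these data. A match is a description of these letters and not evidence of a bound site. The matches are given 5′ to 3′ on the strand of the gene, with the fixed letters of each element in capitals and the free bases in lower case.
Hspa5: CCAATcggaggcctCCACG
Dnajc3: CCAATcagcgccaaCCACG
Creld2: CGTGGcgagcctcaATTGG
Hsp90b1 (farther element): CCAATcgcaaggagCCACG
Hsp90b1 (nearer element): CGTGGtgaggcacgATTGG
Calr: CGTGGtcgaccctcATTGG
Canx: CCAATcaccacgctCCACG
Pdia6: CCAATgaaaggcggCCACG
Syvn1: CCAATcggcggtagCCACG
Derl3: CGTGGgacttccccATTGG
Dnajb11: ATTGGcCCACG
Herpud1: ATTGGgCCACG
Sec24d: TGACGTGG

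The first 10 of these lines are ERSE matches of 9 genes, Dnajb11 and Herpud1 follow with ERSE-II, and Sec24d ends the set with UPRE. In Creld2, Calr, Derl3 and the nearer element of Hsp90b1 the element lies on the opposite strand, so its reverse complement is seen. The Hspa5 match lies at chr2:34772025-34772043, from -65 to -47 relative to the start site, and the Syvn1 match at chr19:6046532-6046550, from -44 to -26. The Herpud1 match lies at chr8:94386377-94386387, from -52 to -42. The Dnajb11 match is the only one past the start site, from 8 to 18.

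**Figure D1:**
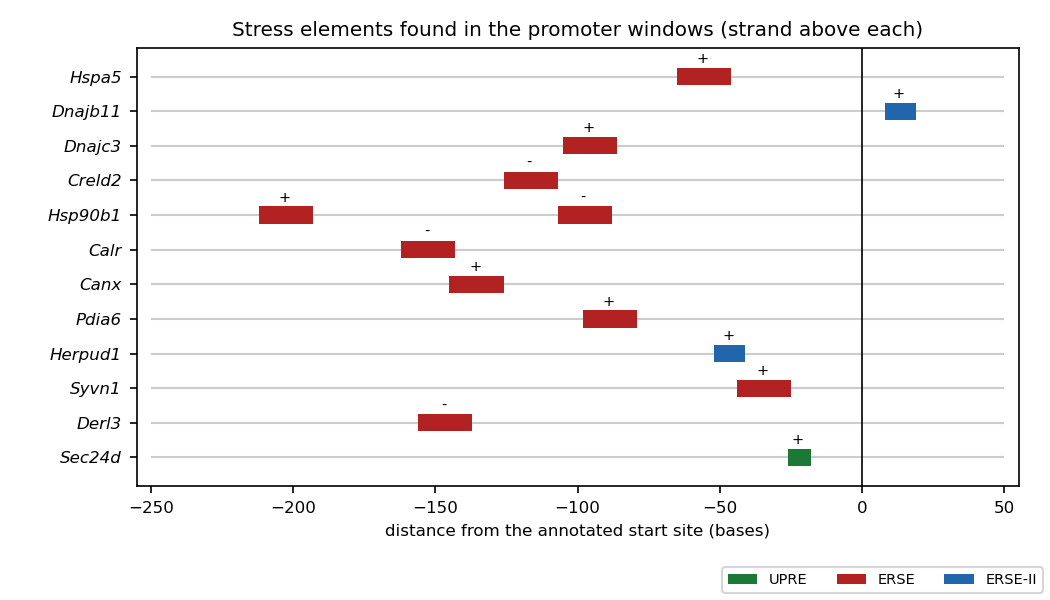
Position of each ERSE (red), ERSE-II (blue) and UPRE (green) match in the promoter windows of the 12 genes that hold one, as distance in bases from the annotated start site (vertical line), with the strand of the match above it. Of the 13 matches, 12 lie before the start site and the ERSE-II of Dnajb11 lies from 8 to 18 after it.

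Whole windows are printed for 4 genes on which the results below turn, with the whole element, free bases included, in capitals. Hspa5 (chr2:34771840-34772139, plus strand) encodes BiP, the main Hsp70 of the compartment. Syvn1 (chr19:6046326-6046625, plus strand) encodes HRD1, the ubiquitin ligase of endoplasmic reticulum-associated degradation, and is the ERSE gene with the largest called fall on the MCD diet. Herpud1 (chr8:94386179-94386478, plus strand) encodes a HRD1 partner and holds ERSE-II. P4hb (chr11:120573204-120573503, minus strand), the protein disulfide isomerase that also serves prolyl hydroxylation, rose on the MCD diet and held none of the 3 whole elements, so its window is all in lower case.
Hspa5: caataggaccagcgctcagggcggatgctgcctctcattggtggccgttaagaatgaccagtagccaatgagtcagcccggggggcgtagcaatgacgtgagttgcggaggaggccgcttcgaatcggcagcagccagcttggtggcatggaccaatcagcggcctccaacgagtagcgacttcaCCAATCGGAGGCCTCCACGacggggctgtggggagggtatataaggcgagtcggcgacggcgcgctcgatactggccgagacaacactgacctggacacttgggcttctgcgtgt
Syvn1: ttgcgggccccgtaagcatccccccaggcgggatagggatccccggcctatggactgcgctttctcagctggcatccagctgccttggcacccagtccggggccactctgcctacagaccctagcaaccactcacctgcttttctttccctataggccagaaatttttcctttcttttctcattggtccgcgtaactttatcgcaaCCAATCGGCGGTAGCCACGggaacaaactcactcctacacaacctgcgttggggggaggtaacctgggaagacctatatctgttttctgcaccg
Herpud1: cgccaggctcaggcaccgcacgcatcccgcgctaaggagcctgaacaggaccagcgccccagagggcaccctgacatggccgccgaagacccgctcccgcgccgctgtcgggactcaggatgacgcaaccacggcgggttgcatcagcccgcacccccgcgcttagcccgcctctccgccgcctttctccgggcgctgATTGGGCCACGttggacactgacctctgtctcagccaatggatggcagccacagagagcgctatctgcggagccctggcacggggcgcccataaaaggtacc
P4hb: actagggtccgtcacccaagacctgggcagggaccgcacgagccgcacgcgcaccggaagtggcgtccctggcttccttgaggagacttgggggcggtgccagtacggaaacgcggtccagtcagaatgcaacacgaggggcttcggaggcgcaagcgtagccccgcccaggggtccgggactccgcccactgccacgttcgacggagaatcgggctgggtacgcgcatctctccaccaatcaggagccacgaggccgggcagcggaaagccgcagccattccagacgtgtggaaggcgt

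Total counts per library lay between 50.1 M and 66.7 M. Hepatocyte markers summed to between 73290 and 120400 CPM (counts scaled to the library total) with 0 of 10 markers at 0 in any group. Pancreatic acinar transcripts, a list of 30 genes such as digestive enzymes, summed to more than 100 CPM in 6 libraries. In the HFD cohort these were DTMB replicate 3 with 2268 CPM, vehicle replicates 1 (599 CPM) and 4 (4110 CPM), and the normal-diet livers 1 (1779 CPM) and 3 (1592 CPM). In the MCD cohort it was the normal-diet liver 4, with 481 CPM. The remaining libraries held 7.42 to 25.1 CPM. Ptf1a, the transcription factor that defines acinar cells, reached at most 0.138 CPM and was at 0 in all MCD-cohort groups. Acinar and plasma cells also express many of the 32 genes at high levels. Of 14 plasma cell markers, the immunoglobulin genes Ighm and Igkc reached 166 and 54.9 CPM in HFD vehicle replicate 2 and at most 13.1 and 7.87 CPM in any other library. Jchain and Mzb1 were also highest there, at 16.2 and 0.902 CPM. The list had a median log2 fold change of 0.93 in HFD vehicle against normal-diet livers, with 0 of 13 tested genes higher and 1 lower, and of -0.83 in HFD DTMB against HFD vehicle livers, with 1 higher and 0 lower. Its part in the results was not tested, apart from the DTMB count without vehicle replicate 2 given with the HFD results.

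**Figure D2:**
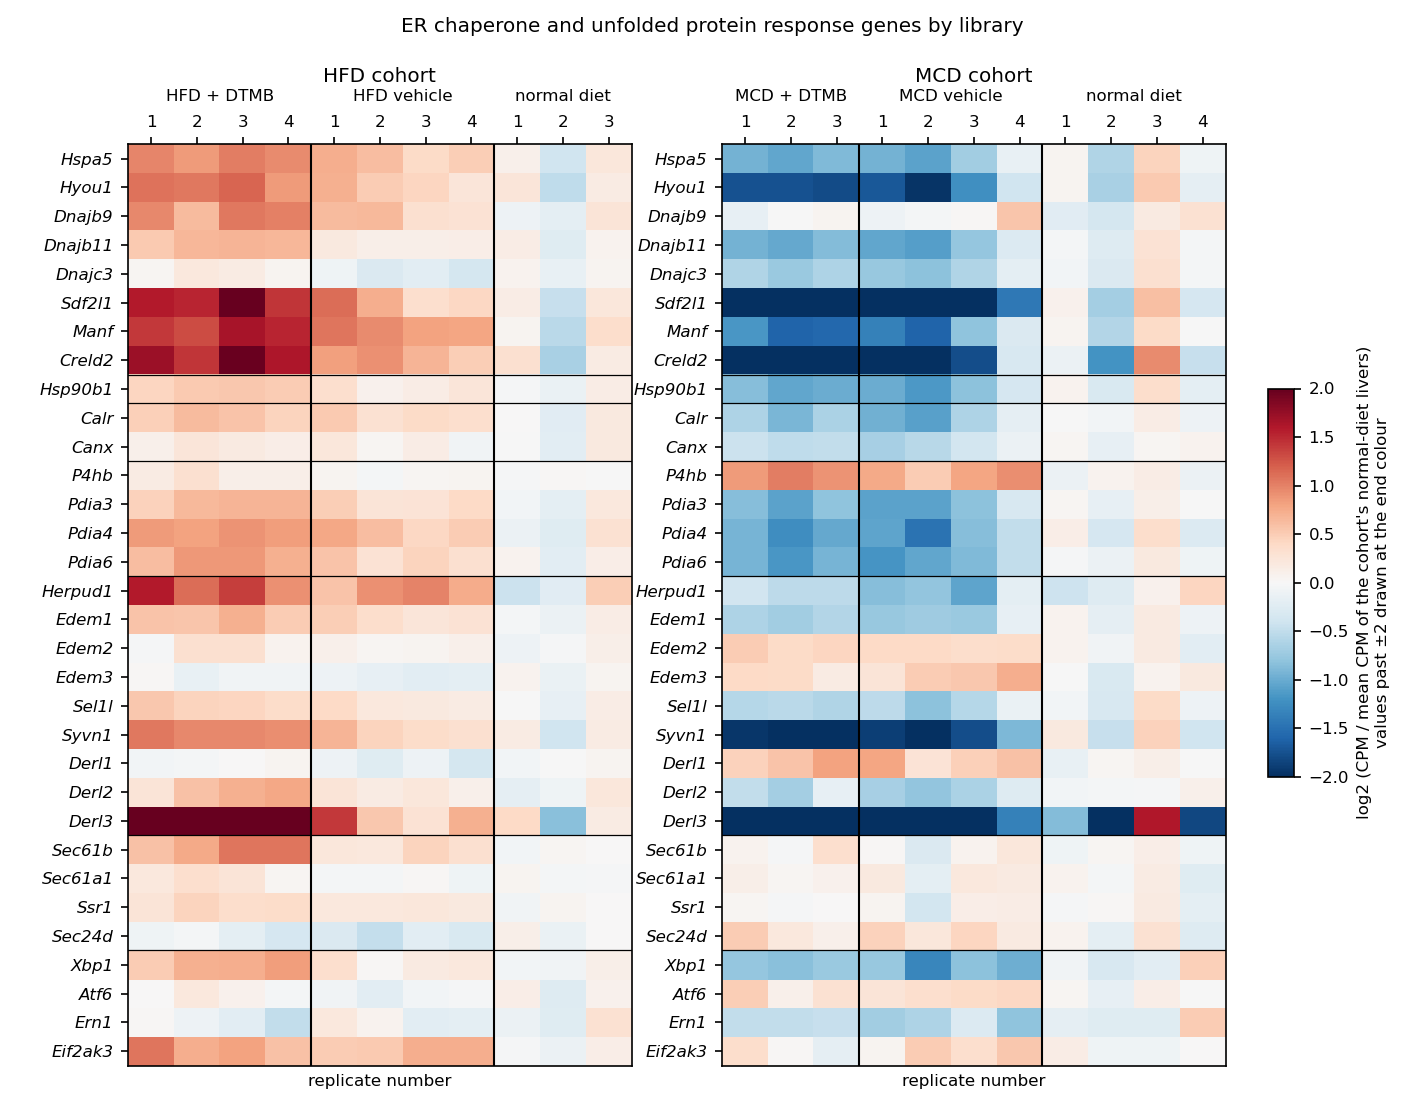
Heat map of all 32 genes (rows, ordered by role, with lines between roles) in all 22 libraries (columns, by group and replicate number). Colour is the log2 ratio of the library's TMM-scaled CPM to the mean of the normal-diet livers of its own cohort, red above and blue below. The HFD cohort is mostly red in DTMB and vehicle livers, the MCD cohort mostly blue with P4hb, Edem2, Edem3 and Derl1 in red, and MCD vehicle replicate 4 is paler than replicates 1 to 3 for most of the blue genes. With library size alone in place of TMM, 20 of the 32 MCD vehicle changes against normal diet were below 0, compared with 21 here.

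Levels per kilobase of exon (RPKM, from group mean CPM and the exon union of the gene) differed widely between genes. P4hb was the highest in all 6 groups, at 490.0, 439 and 431 RPKM in HFD DTMB, HFD vehicle and normal-diet livers and 1179.6, 1046 and 619.9 RPKM in MCD DTMB, MCD vehicle and normal-diet livers. Derl3 was the lowest in all 6 groups, at 1.99, 0.720 and 0.412 RPKM in the HFD cohort and 0.179, 0.457 and 1.71 RPKM in the MCD cohort, in the same order of groups. Among the sensors, Atf6 exceeded Ern1 and Eif2ak3 in every group mean. All other levels below are CPM, scaled within a cohort and not comparable across cohorts.

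The HFD cohort was examined first. On HFD, 15 of the 32 genes were higher and 1 was lower than on normal diet at an adjusted p of 0.05 or less in edgeR's quasi-likelihood test, against 15.2% of all 15597 genes tested higher and 12.6% lower, or 27.8% either way. The median log2 fold change was 0.27 over the 32 genes and 0.02 over all genes. DTMB on HFD, compared with HFD vehicle, had 16 of the 32 higher and 0 lower, against 6.64% and 6.04% of all genes (12.7% either way), with medians of 0.28 over the 32 and -0.01 over all. Set against normal diet, HFD DTMB livers had 23 higher and 0 lower (15.7% and 13.5% of all genes, 29.2% either way), with medians of 0.61 and 0.01. These 3 comparisons share libraries, so their values stand side by side and are not independent of each other. In bulk tissue, fewer cells of a type and less RNA per cell cannot be told apart. Libraries of the groups did not overlap for 17 of the 32 genes higher and 2 lower on HFD against normal diet (19% and 17% of all genes, 36% either way), and for 19 higher and 0 lower with DTMB against HFD vehicle (10.5% and 9.35%, 19.8% either way). HFD DTMB and normal-diet livers were separate for 23 genes higher and 0 lower (18.9% and 16.5%, 35.4% either way).

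The DTMB count in this cohort depends on the set of libraries. Without the 5 HFD-cohort libraries that hold acinar transcripts, 0 of the 32 genes passed in DTMB against HFD vehicle, where 0% of 16101 genes tested passed, by edgeR. In that fit 19 of the 32 and 2182 of all genes had an unadjusted p under 0.05, 31 of 32 log2 fold changes were positive and their median was 0.33. In the same fit, which leaves 3 DTMB, 2 vehicle and 1 normal-diet library and assumes that the lone one varies like the others, HFD against normal diet had 7 higher and 0 lower (4.07% of all genes) with a median of 0.36, and HFD DTMB against normal diet had 19 higher and 0 lower (6.35%). Without single libraries the DTMB count was 9, 7 and 6 without vehicle replicates 1, 2 and 4, and 7, 7 and 8 without DTMB replicates 2, 3 and 4. The diet count was 9 and 10 without normal-diet replicates 1 and 2. The share of all genes called in these fits is not given here. A loss of calls among the 32 genes thus cannot be told from one over all genes. Scaled by library size alone, all genes shifted by a median of 0.14 on HFD and -0.17 with DTMB. The 32 genes then had 19 higher and 0 lower on HFD and 6 higher and 0 lower with DTMB, and all genes 21.5% higher and 6.6% lower on HFD and 2.6% higher and 15.3% lower with DTMB. Macrophage markers, 14 genes of which 0 were at 0 in any group, summed to 138 to 221 CPM in HFD DTMB livers, 173 to 365 CPM in HFD vehicle livers and 109 to 162 CPM in normal-diet livers, and their part in these results was not tested.

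Among the Hsp70 chaperone and its cofactors, a group in which Creld2 was counted, 6 of 8 genes rose on HFD and 8 of 8 rose with DTMB on HFD. Of all genes, 15.2% and 6.64% were higher in these comparisons. With library size alone the second count was 3, where 2.6% of all genes were higher. Hspa5 (BiP, gene ID 14828, chromosome 2, 34772090 to 34776529, GRCm38.p6) had 1358, 1238, 1400.0 and 1328 CPM in HFD DTMB livers, 1137, 1052, 898 and 966 CPM in HFD vehicle livers and 737, 524 and 804 CPM in normal-diet livers. The 3 groups did not overlap, with DTMB the highest and normal diet the lowest. Its log2 fold change was 0.56 ± 0.13 (SE) for HFD against normal diet (edgeR adjusted p = 0.00784) and 0.39 ± 0.12 for DTMB against HFD vehicle (adjusted p = 0.0495), and the second call was kept in only 2 of 11 fits that each left out 1 library. Manf (gene ID 74840, chromosome 9, 106888753 to 106891938), a secreted protein that binds BiP, had 111, 103, 131 and 119 CPM in HFD DTMB livers, 87.5, 80.1, 73.0 and 72.2 CPM in HFD vehicle livers and 43.4, 28.6 and 53.0 CPM in normal-diet livers. It too formed 3 separate steps, with changes of 0.91 ± 0.17 on HFD (adjusted p = 0.00237) and 0.57 ± 0.15 with DTMB (adjusted p = 0.0353), and its rise in HFD DTMB over normal-diet livers, 1.48 ± 0.17, had the smallest p of the 32 genes (adjusted p = 0.000118).

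Creld2 (gene ID 76737, chromosome 15, 88819646 to 88826681), a disulfide isomerase-like stress protein with an ERSE in its window, had 97.5, 80.3, 117 and 91.3 CPM in HFD DTMB livers, 52.5, 55.8, 47.6 and 41.9 CPM in HFD vehicle livers and 37.1, 18.9 and 33.2 CPM in normal-diet livers. The DTMB livers all lay above the vehicle livers and these above normal diet, with 0.97 ± 0.19 for DTMB against HFD vehicle and 1.70 ± 0.21 for HFD DTMB against normal diet (edgeR adjusted p = 0.0115 and 0.000148). Sdf2l1 (gene ID 64136, chromosome 16, 17130138 to 17132383), a BiP cofactor, had 31.2, 29.97, 42.9 and 28.1 CPM in HFD DTMB livers, 22.7, 17.3, 13.1 and 13.9 CPM in HFD vehicle livers and 11.5, 7.54 and 12.2 CPM in normal-diet livers. The groups of Sdf2l1 were separate too, with 0.68 ± 0.22 on HFD and 0.98 ± 0.20 with DTMB (adjusted p = 0.0369 and 0.0144). DTMB replicate 3, which holds acinar transcripts, was the highest for both Creld2 and Sdf2l1, while vehicle replicate 4, with the most acinar transcripts, was the lowest of its group for Creld2. Normal-diet replicate 2, the normal-diet library without acinar transcripts, was the lowest of its group for 25 of the 32 genes. Vehicle replicate 1, which holds 599 CPM of them, was the highest of its group for 23 of the 32. Vehicle replicate 4 was the highest of that group for 2 genes and the lowest for 12. Such counts were not made over all genes, and the part of acinar transcripts in these levels was not tested. Dnajb11 (gene ID 67838, chromosome 16, 22857845 to 22879634), a J-domain cofactor of BiP, had 96.5, 106, 108 and 106 CPM in HFD DTMB livers, 76.9, 72.6, 72.8 and 73.6 CPM in HFD vehicle livers and 74.2, 56.3 and 70.1 CPM in normal-diet livers. Its vehicle and normal-diet livers overlapped (0.15 ± 0.09, adjusted p = 0.257) and the DTMB livers lay above both, with the smallest p of the 32 genes in the DTMB comparison (0.49 ± 0.08, adjusted p = 0.00987). Dnajc3, a J-domain cofactor also known as P58IPK, had a change of -0.23 ± 0.08 on HFD that did not pass (adjusted p = 0.0553) and rose by 0.35 ± 0.08 with DTMB.

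**Figure D3:**
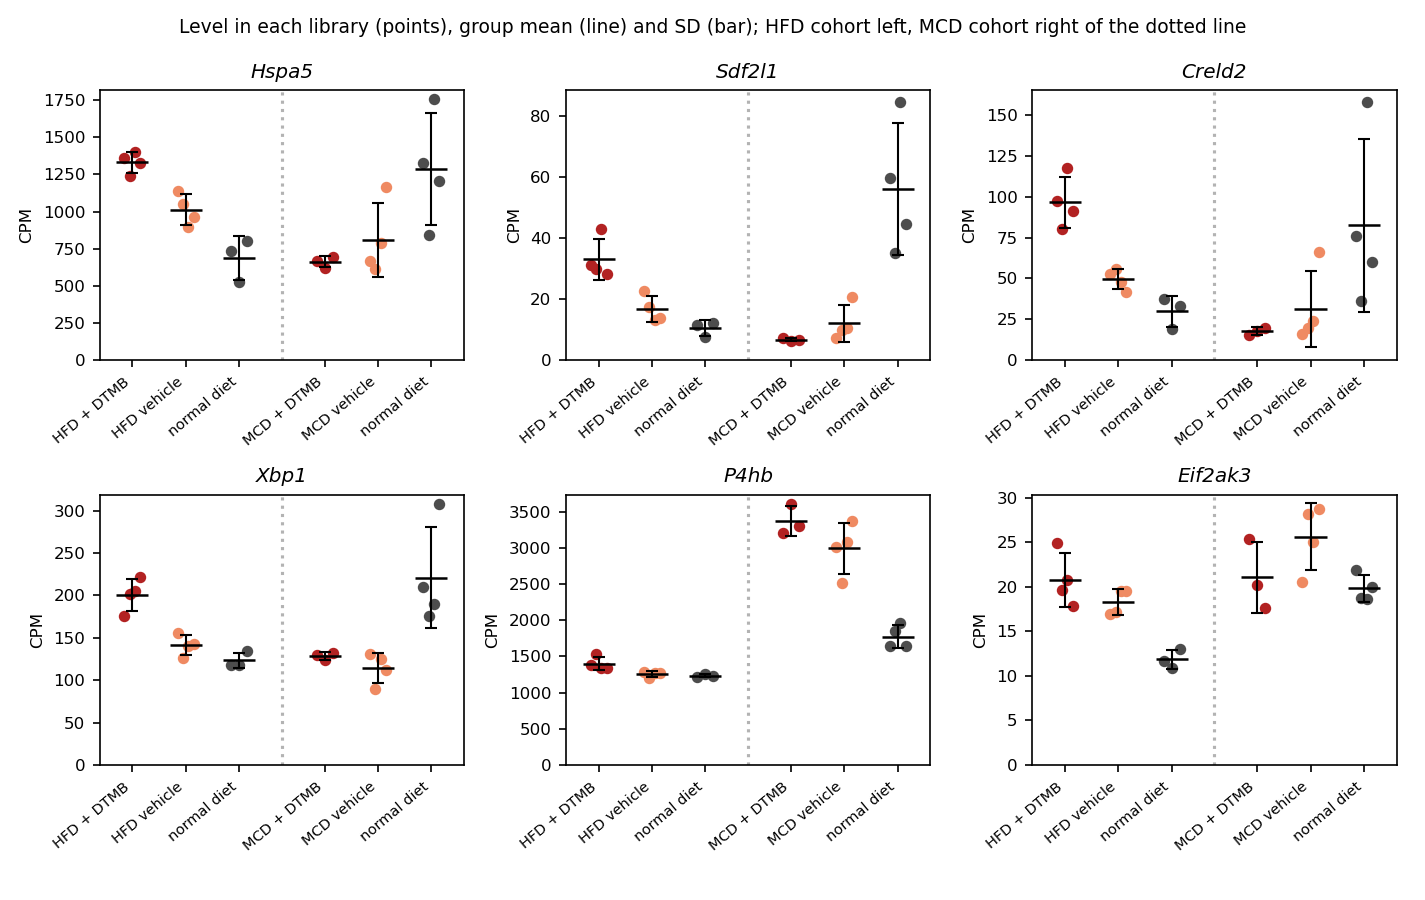
CPM of 6 genes in each library (points) with group mean (line) and SD (bar), DTMB, vehicle and normal diet from left to right, HFD cohort left and MCD cohort right of the dotted line; the 2 cohorts are scaled separately. Hspa5, Sdf2l1 and Creld2 step down from DTMB to normal diet in the HFD cohort and have lower means in both MCD-diet groups than in normal-diet livers of the MCD cohort, while P4hb is higher in both MCD-diet groups than on normal diet.

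Of the other folding genes, Hsp90b1 (GRP94, the Hsp90 of the compartment) rose with DTMB (0.30 ± 0.08, edgeR adjusted p = 0.0285), and its change on HFD did not pass (0.21 ± 0.08, adjusted p = 0.0813). Of the lectin chaperones, Calr (calreticulin) rose on HFD by 0.39 ± 0.10 and Canx (calnexin) passed in none of the 3 comparisons. The protein disulfide isomerases Pdia3, Pdia4 and Pdia6 rose on HFD. Pdia6 also rose with DTMB, and Pdia3 (0.26 ± 0.09) and Pdia4 did not pass there. Pdia4 (gene ID 12304, chromosome 6, 47796141 to 47813512) had 267, 256, 274 and 264 CPM in HFD DTMB livers, 250.9, 225, 195 and 208 CPM in HFD vehicle livers and 135, 124 and 182 CPM in normal-diet livers. The groups did not overlap, with 0.58 ± 0.12 on HFD (adjusted p = 0.00496) and 0.27 ± 0.11 with DTMB (adjusted p = 0.13). Pdia6 (gene ID 71853, chromosome 12, 17266589 to 17284785) had 188, 225, 224 and 202 CPM in HFD DTMB livers, 182, 149.99, 168 and 154 CPM in HFD vehicle livers and 129, 106 and 134 CPM in normal-diet livers, and its groups were separate as well (0.41 ± 0.10 on HFD and 0.36 ± 0.10 with DTMB, adjusted p = 0.0116 and 0.0325). P4hb (gene ID 18453, chromosome 11, 120560298 to 120573253) had 1387, 1540.3, 1343 and 1337 CPM in HFD DTMB livers, 1283, 1197, 1272 and 1276 CPM in HFD vehicle livers and 1218, 1258 and 1225 CPM in normal-diet livers. Its DTMB livers lay above the other groups, whose ranges overlapped, and neither 0.03 ± 0.07 on HFD nor 0.16 ± 0.06 with DTMB passed (adjusted p = 0.8 and 0.109).

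Of 9 genes of endoplasmic reticulum-associated degradation, Herpud1, Edem1, which targets misfolded glycoproteins, and Syvn1 rose on HFD. Syvn1 and the Derlin genes Derl2 and Derl3, which encode channel components, rose with DTMB. Syvn1 (gene ID 74126, chromosome 19, 6046576 to 6053718) had 108, 101, 101 and 98.5 CPM in HFD DTMB livers, 83.6, 70.6, 66.6 and 64.6 CPM in HFD vehicle livers and 58.2, 39.2 and 58.4 CPM in normal-diet livers. These groups were separate, with 0.46 ± 0.13 on HFD and 0.52 ± 0.12 with DTMB (edgeR adjusted p = 0.0243 and 0.0227). Herpud1 rose by 0.82 ± 0.21 on HFD, and its change with DTMB, 0.46 ± 0.19, did not pass (adjusted p = 0.133). Derl3 had the largest estimated change with DTMB, 1.47 ± 0.27, at a low level of 3.31, 4.71, 3.83 and 4.04 CPM in HFD DTMB livers and 2.20, 1.199, 1.00 and 1.35 CPM in HFD vehicle livers. Derl3 is expressed in acinar cells, whose transcripts differed between these libraries. Without the libraries that hold them its call was lost, as was every other call in this comparison, and its estimated change was 1.87. The part of acinar transcripts in this change was not tested. Derl1 (gene ID 67819, chromosome 15, 57869502 to 57892418) had 115, 117, 120.3 and 125 CPM in HFD DTMB livers, 112, 101, 111 and 94.4 CPM in HFD vehicle livers and 116, 119 and 124 CPM in normal-diet livers. Edem3 (gene ID 66967, chromosome 1, 151755344 to 151822328) had 53.8, 47.7, 50.7 and 50.5 CPM in HFD DTMB livers, 49.3, 47.2, 46.0 and 46.3 CPM in HFD vehicle livers and 55.5, 48.4 and 55.4 CPM in normal-diet livers. Neither Derl1 nor Edem3 passed on HFD (-0.20 ± 0.07 and -0.17 ± 0.07) or with DTMB, although the vehicle livers of Derl1 all lay below normal diet.

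Of the translocation and export genes, Sec61b (gene ID 66212, chromosome 4, 47474661 to 47483233), the beta subunit of the translocation channel, had 30.5, 34.4, 42.9 and 42.9 CPM in HFD DTMB livers, 23.8, 23.5, 27.8 and 25.5 CPM in HFD vehicle livers and 19.6, 21.0 and 20.6 CPM in normal-diet livers. All 3 groups were separate, and the change passed with DTMB (0.58 ± 0.11, edgeR adjusted p = 0.011) but not on HFD (0.30 ± 0.12, adjusted p = 0.0739). Sec24d (gene ID 69608, chromosome 3, 123264801 to 123365641), a cargo adaptor of COPII vesicles, had 100, 103, 92.0 and 83.4 CPM in HFD DTMB livers, 87.0, 76.0, 91.8 and 85.2 CPM in HFD vehicle livers and 114, 96.1 and 107 CPM in normal-diet livers. It was the one gene of the 32 that fell on HFD (-0.32 ± 0.09, adjusted p = 0.0271), with all vehicle livers below normal diet, and this call was lost with library size alone (adjusted p = 0.204) and without normal-diet replicate 1 or 3 or vehicle replicate 2. Sec61a1 rose with DTMB (0.25 ± 0.07), and Ssr1, a translocon-associated protein, rose on HFD (0.21 ± 0.07).

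Of the sensors and XBP1, Xbp1 rose with DTMB, Eif2ak3 rose on HFD, and Atf6 and Ern1 did not pass. Xbp1 (gene ID 22433, chromosome 11, 5520641 to 5525993) had 175, 201, 205 and 221 CPM in HFD DTMB livers, 156, 126, 140.4 and 143 CPM in HFD vehicle livers and 118, 118 and 134 CPM in normal-diet livers. Its DTMB livers lay above all others (0.51 ± 0.09 against HFD vehicle, edgeR adjusted p = 0.0101), while vehicle and normal diet overlapped (0.19 ± 0.09, adjusted p = 0.147). Eif2ak3 (gene ID 13666, chromosome 6, 70844484 to 70905241) had 25.0, 19.7, 20.8 and 17.9 CPM in HFD DTMB livers, 16.9, 17.1, 19.6 and 19.6 CPM in HFD vehicle livers and 11.7, 10.9 and 13.0 CPM in normal-diet livers. For Eif2ak3 the step lay between diets (0.63 ± 0.11, adjusted p = 0.00199, the smallest p of the 32 genes on HFD), and DTMB and vehicle livers overlapped (0.19 ± 0.10, adjusted p = 0.245). Atf6 (gene ID 226641, chromosome 1, 170704457 to 170868585) had 86.4, 99.5, 91.2 and 83.2 CPM in HFD DTMB livers, 81.8, 74.3, 82.2 and 84.4 CPM in HFD vehicle livers and 94.4, 71.7 and 91.3 CPM in normal-diet livers. Ern1 (gene ID 78943, chromosome 11, 106397620 to 106487796) had 24.4, 22.4, 20.8 and 17.1 CPM in HFD DTMB livers, 27.8, 25.3, 20.6 and 20.9 CPM in HFD vehicle livers and 22.1, 20.2 and 29.6 CPM in normal-diet livers. Groups overlapped for both Atf6 and Ern1, and neither passed in any of the 3 comparisons.

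In the HFD cohort 6 of the 16 diet calls were kept in every fit that left out 1 library: Hspa5, Manf, Creld2, Calr, Pdia4 and Eif2ak3. Of the 16 DTMB calls, 6 were kept in every such fit: Dnajb11, Sdf2l1, Creld2, Derl3, Sec61b and Xbp1. Against normal diet, 22 of the 23 calls of HFD DTMB livers were kept, Sec61a1 being the exception, and all called genes kept their sign throughout.

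The MCD cohort was examined next. In MCD vehicle livers 6 of the 32 genes were higher and 20 lower than in normal-diet livers of the same cohort by edgeR's test, against 20.3% and 21% of all 16037 genes tested (41.3% either way). The median log2 fold change was -0.58 over the 32 genes and 0.00 over all genes. Scaled by library size alone, the median of all genes moved to 0.47 and the 32 genes had 11 higher and 5 lower (Hyou1, Sdf2l1, Pdia6, Syvn1 and Xbp1), with 47.9% of all genes higher and 7.3% lower. Of the 20 genes called lower, all but Canx (0.04, edgeR adjusted p = 0.749) stayed below 0 on that scale. The median of the 32 genes lay 0.59 below that of all genes, compared with 0.58 below it under TMM scaling. Scaling shifts all genes nearly alike, so this gap could hardly change and is no check of the fall. Libraries of the 2 groups did not overlap for 5 genes higher and 11 lower, against 17.8% and 19.9% of all genes (37.7% either way). Leaving out normal-diet replicate 4, which holds 481 CPM of acinar transcripts, gave 5 higher and 19 lower (35.9% of all genes in either direction), and 18 of the 26 calls were kept in every fit that left out 1 library.

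Within the groups of the MCD cohort, single livers stood apart. MCD vehicle replicate 4 was the highest of its group for 26 of the 32 genes, and normal-diet replicate 3 the highest of its group for 24. Neither was among the libraries with acinar transcripts. The same counts were not made over all genes, so a library high for many genes cannot be told from one high for these 32. The summed macrophage markers, again with 0 of 14 at 0 in any group, moved with the diet (7 of 14 higher in MCD vehicle against normal-diet livers) and were at 322 to 617 CPM in MCD DTMB livers, 519 to 1403 CPM in MCD vehicle livers and 122 to 324 CPM in normal-diet livers. Stellate cell and fibroblast markers also moved with the diet, with 7 of 12 higher and 0 lower (median 1.01). Their sums were 427 to 465 CPM in MCD DTMB livers, 519 to 915 CPM in MCD vehicle livers and 141 to 349.8 CPM in normal-diet livers. None of the 12 was at 0 in any group. Of 10 hepatocyte markers 5 were lower and 0 higher in MCD vehicle livers (median -0.39, but 0.06 with 4 lower and 2 higher by library size alone). Of 13 mitochondrially encoded genes 11 were lower (median -0.65, and -0.18 with 3 lower by library size alone). The part of these lists in the results on the 32 genes was not tested.

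**Figure D4:**
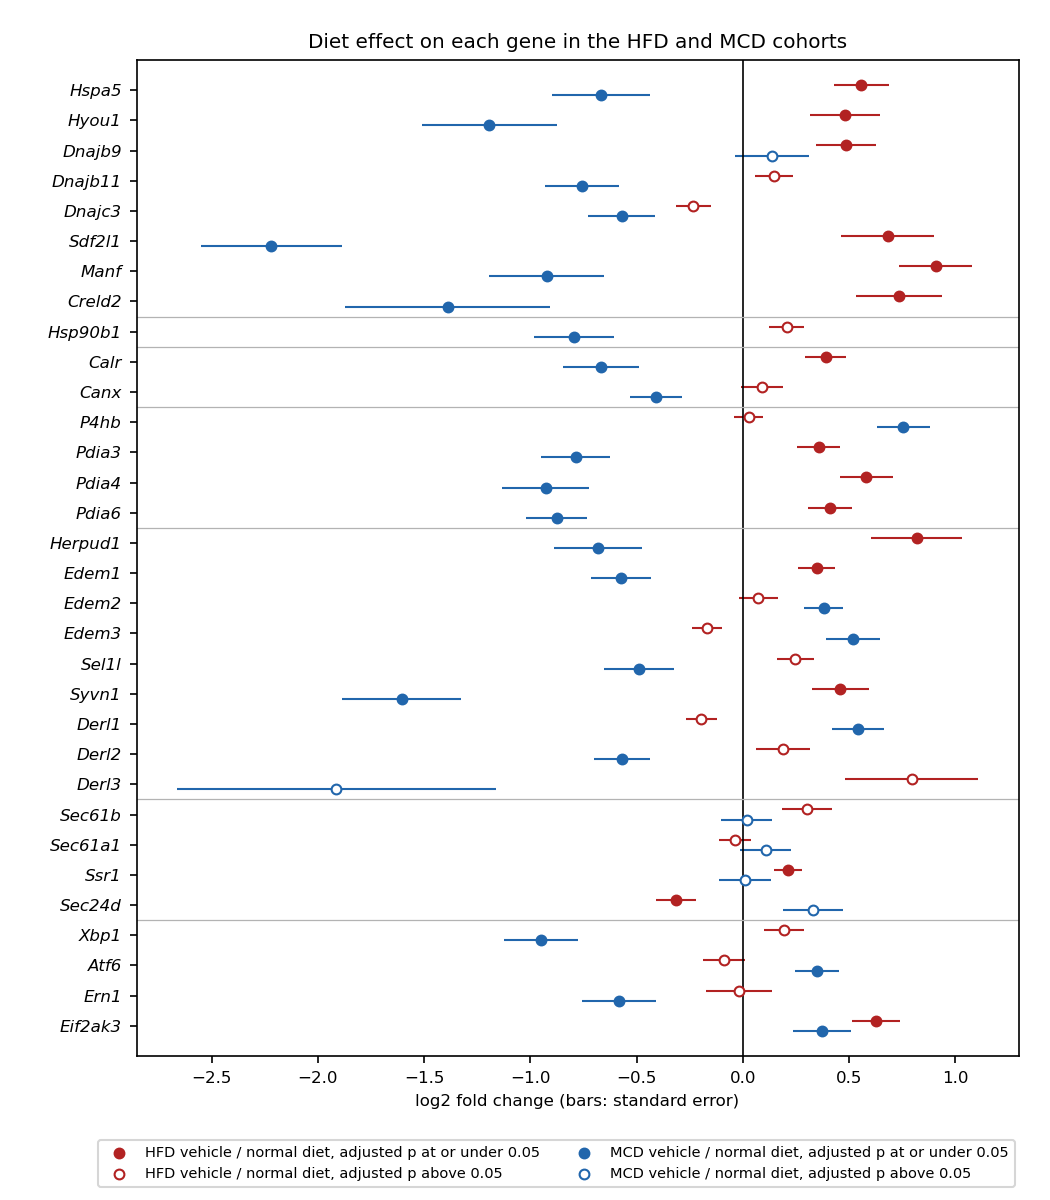
Log2 fold change (points) with standard error (bars) of each of the 32 genes for HFD vehicle over normal diet (red) and MCD vehicle over normal diet (blue), under TMM scaling, ordered by role; filled points passed an adjusted p of 0.05 in edgeR. On HFD 15 genes passed above 0 and 1 below; on the MCD diet 6 passed above and 20 below, or 11 and 5 when scaled by library size alone.

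The Hsp70 chaperone and its cofactors, again with Creld2, had 0 of 8 genes higher and 7 lower on the MCD diet, against 20.3% and 21% of all genes. Dnajb9 did not pass (0.14 ± 0.17). With library size alone it was 1 higher, Dnajb9 (0.59, edgeR adjusted p = 0.00515), and 2 lower, Hyou1 and Sdf2l1. On that scale 47.9% of all genes were higher and 7.3% lower. Hspa5 had 665, 623 and 695 CPM in MCD DTMB livers, 665, 614, 789.8 and 1165 CPM in MCD vehicle livers and 1329, 844, 1758 and 1207 CPM in normal-diet livers. Vehicle replicate 4 reached into the normal-diet range, and the change of -0.67 ± 0.23 (edgeR adjusted p = 0.0373) was kept in only 2 of 11 fits without 1 library and was lost with library size alone (adjusted p = 0.382). Sdf2l1 had 7.17, 6.19 and 6.41 CPM in MCD DTMB livers, 7.11, 9.90, 10.4 and 20.7 CPM in MCD vehicle livers and 59.7, 35.1, 84.5 and 44.5 CPM in normal-diet livers. Both MCD-diet groups lay below every normal-diet liver, with -2.22 ± 0.33 for vehicle (adjusted p = 0.000301) and -3.09 ± 0.39 for DTMB (adjusted p = 0.000126) against normal diet, the smallest p of the 32 genes in both. Creld2 had 15.0, 17.99 and 19.8 CPM in MCD DTMB livers, 16.2, 19.5, 24.2 and 66.1 CPM in MCD vehicle livers and 75.9, 36.1, 158 and 59.8 CPM in normal-diet livers. Vehicle and normal-diet livers of Creld2 overlapped through vehicle replicate 4, and its change of -1.39 ± 0.48 was kept in 5 of 11 fits without 1 library. Of the others, Hyou1, a large Hsp70-like chaperone, fell by 1.19 ± 0.32, Manf by 0.92 ± 0.27, Dnajb11 by 0.76 ± 0.18 and Dnajc3 by 0.57 ± 0.16.

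Hsp90b1 fell by 0.79 ± 0.19, Calr by 0.67 ± 0.18 and Canx by 0.41 ± 0.12, although Canx was 0.04 above 0 with library size alone. The protein disulfide isomerases split on the MCD diet, with Pdia3, Pdia4 and Pdia6 lower and P4hb higher. Pdia6 had 175, 149.7 and 175 CPM in MCD DTMB livers, 148, 162, 181 and 237 CPM in MCD vehicle livers and 330.5, 309, 384 and 315 CPM in normal-diet livers. P4hb had 3204, 3611 and 3309.9 CPM in MCD DTMB livers, 3014, 2511, 3078 and 3367 CPM in MCD vehicle livers and 1643, 1854, 1957 and 1639.6 CPM in normal-diet livers. For each gene both MCD-diet groups were separate from normal diet, Pdia6 below it and P4hb above it. Pdia6 fell by 0.88 ± 0.15 and P4hb rose by 0.75 ± 0.13 (edgeR adjusted p = 0.000613 and 0.000654).

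Degradation genes also went both ways, with 3 of 9 higher and 5 lower, against 20.3% and 21% of all genes. With library size alone these counts were 3 and 1, against 47.9% and 7.3% of all genes. Syvn1 had 37.5, 34.6 and 29.5 CPM in MCD DTMB livers, 39.4, 31.1, 42.3 and 77.5 CPM in MCD vehicle livers and 165, 105, 199 and 109.7 CPM in normal-diet livers. Every MCD-diet liver, with or without DTMB, lay below every normal-diet liver (-1.60 ± 0.28 for vehicle, edgeR adjusted p = 0.000867). Derl1, a Derlin channel component, had 183, 196 and 232 CPM in MCD DTMB livers, 229.9, 161, 184 and 198 CPM in MCD vehicle livers and 119, 136, 144 and 132 CPM in normal-diet livers. Edem2 (gene ID 108687, chromosome 2, 155701673 to 155729475), which starts mannose trimming of misfolded glycoproteins, had 97.2, 89.5 and 91.8 CPM in MCD DTMB livers, 89.8, 89.9, 87.5 and 88.2 CPM in MCD vehicle livers and 71.4, 65.3, 77.2 and 59.2 CPM in normal-diet livers. Edem3, another mannosidase of this pathway, had 69.1, 68.1 and 58.8 CPM in MCD DTMB livers, 62.5, 74.6, 76.0 and 87.0 CPM in MCD vehicle livers and 51.9, 42.6, 55.2 and 60.0 CPM in normal-diet livers. All vehicle livers lay above all normal-diet livers for Derl1 (0.54 ± 0.12), Edem2 (0.38 ± 0.09) and Edem3 (0.52 ± 0.13), with adjusted p = 0.00446, 0.00608 and 0.00684. Herpud1, Edem1, Sel1l, the HRD1 adaptor, and Derl2 fell, with log2 changes between -0.68 and -0.49. Derl3 did not pass (-1.91 ± 0.75, adjusted p = 0.0592), with normal-diet levels of 1.87, 0.451, 10.4 and 0.971 CPM. None of the 4 translocation and export genes passed (0.01 to 0.33). With library size alone all 4 were called higher (Sec24d 0.79, Sec61a1 0.56, Sec61b 0.48 and Ssr1 0.46, edgeR adjusted p of 0.0019 to 0.00718). On that scale 47.9% of all genes were higher, and the median over all genes was 0.47, close to the values of Sec61b and Ssr1.

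Of the sensors and XBP1, Xbp1 and Ern1 fell on the MCD diet, and Atf6 and Eif2ak3 rose. Xbp1 had 129.6, 124 and 133 CPM in MCD DTMB livers, 130.4, 89.8, 125 and 112 CPM in MCD vehicle livers and 210.0, 176, 190.0 and 308 CPM in normal-diet livers, with every MCD-diet liver below normal diet (-0.95 ± 0.17, edgeR adjusted p = 0.00114). Ern1 had 24.9, 24.9 and 25.6 CPM in MCD DTMB livers, 21.8, 22.9, 29.0 and 20 CPM in MCD vehicle livers and 31.1, 29.7, 29.6 and 50.01 CPM in normal-diet livers. Its change of -0.58 ± 0.17 (adjusted p = 0.0186) was lost without vehicle replicate 4 and with library size alone. Atf6 had 139, 105 and 121 CPM in MCD DTMB livers, 118, 124, 127 and 131 CPM in MCD vehicle livers and 101, 87.1, 107 and 97.1 CPM in normal-diet livers. All vehicle livers lay above normal diet for Atf6 (0.35 ± 0.10, adjusted p = 0.0182), and the call was lost without normal-diet replicate 2. Eif2ak3 had 25.4, 20.2 and 17.6 CPM in MCD DTMB livers, 20.6, 28.2, 25.0 and 28.7 CPM in MCD vehicle livers and 21.9, 18.8, 18.7 and 20 CPM in normal-diet livers. These overlapped, and the rise of 0.37 ± 0.14 (adjusted p = 0.0463) was kept in 4 of 11 fits without 1 library.

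With DTMB on the MCD diet, 0 of the 32 genes passed in edgeR's quasi-likelihood test against MCD vehicle, and 1 of all 16037 genes did (0.00624%). At an unadjusted p under 0.05 there was 1 of the 32 genes (Sdf2l1, -0.87 ± 0.35) and 857 of all genes, and DESeq2 called 0 of the 32. The median log2 fold change was -0.08 over the 32 genes and 0.02 over all genes. Hspa5 had a change of -0.29 ± 0.25, Xbp1 0.17 ± 0.18, Atf6 -0.04 ± 0.11, Ern1 0.10 ± 0.19 and Eif2ak3 -0.28 ± 0.15. Groups of 1 gene did not overlap: Derl3, lower in all 3 MCD DTMB livers (0.351, 0.336 and 0.386 CPM) than in the MCD vehicle livers (0.861, 0.832, 0.607 and 1.34 CPM), where 3.27% of all genes lay wholly lower, 2.59% wholly higher and 5.86% either. These are small counts, and the change of -1.34 ± 0.87 did not pass (adjusted p = 0.923).

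**Figure D5:**
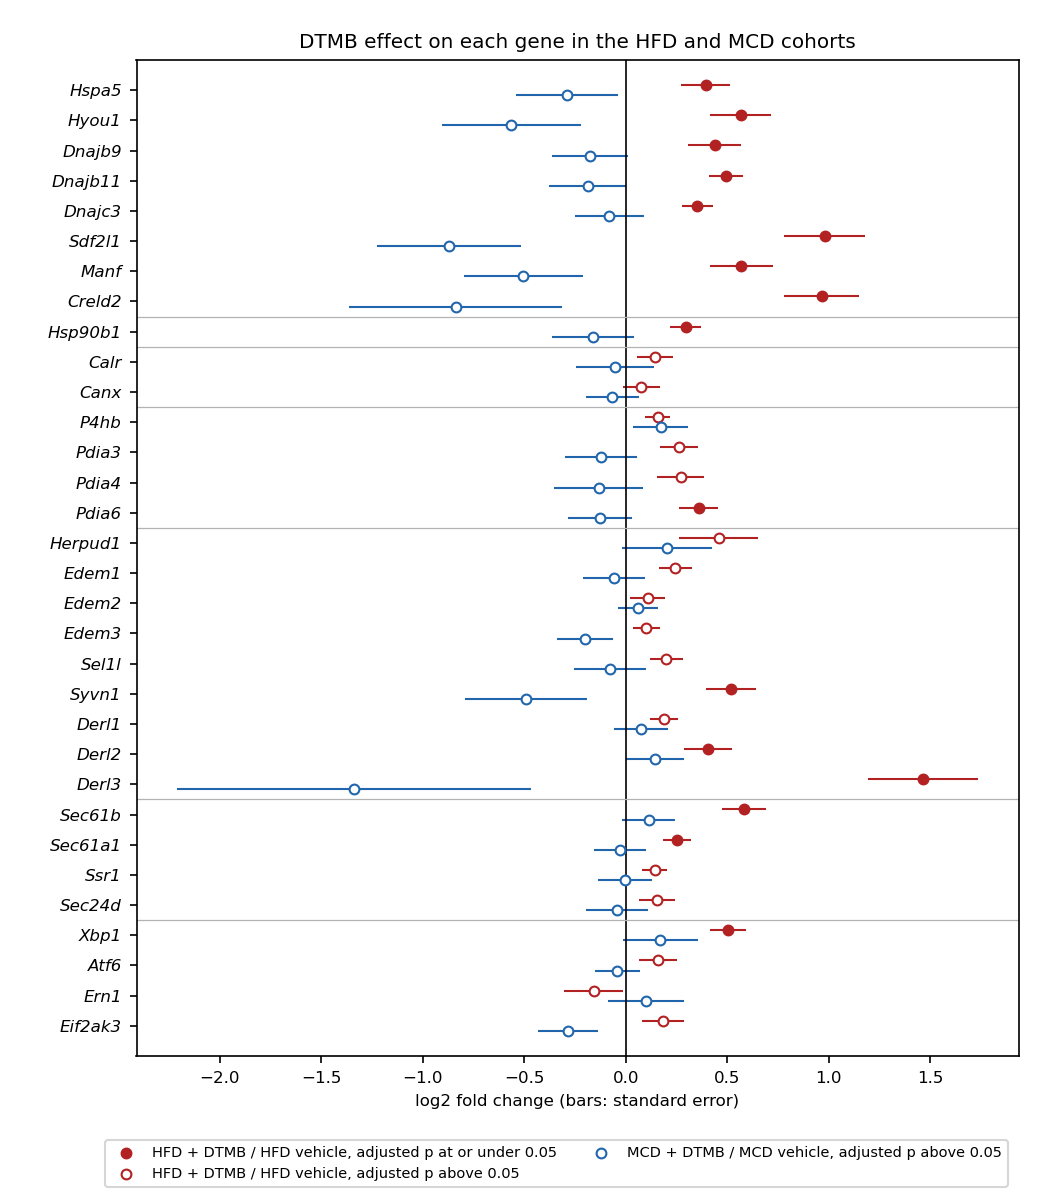
Log2 fold change (points) with standard error (bars) of each of the 32 genes for DTMB over vehicle on HFD (red) and on the MCD diet (blue), under TMM scaling, ordered by role; filled points passed an adjusted p of 0.05 in edgeR. On HFD 16 genes passed above 0, a count that was 6 with library size alone and 0 without the libraries with acinar transcripts; on the MCD diet 0 passed.

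Against normal diet, MCD DTMB livers had 3 of the 32 genes higher and 19 lower (16.2% and 16.4% of all genes, 32.6% either way), with medians of -0.60 over the 32 and 0.01 over all. Scaled by library size alone these counts were 10 and 11, where 36.2% of all genes were higher and 6.84% lower. Under TMM scaling the genes higher were P4hb (0.93 ± 0.13), Derl1 (0.62 ± 0.13) and Edem2 (0.44 ± 0.10), and the lower ones of smallest p were Sdf2l1, Syvn1 (-2.09 ± 0.32) and Pdia6 (-1.004 ± 0.16), with edgeR adjusted p of 0.000345, 0.00423, 0.005, 0.000126, 0.000468 and 0.000652 in that order. The libraries were separate for 3 genes higher and 20 lower (21.7% and 22.4% of all genes, 44.1% either way). Xbp1 fell by 0.78 ± 0.19, and Atf6 (0.31 ± 0.11), Ern1 (-0.48 ± 0.19) and Eif2ak3 (0.09 ± 0.15) did not pass.

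The diet effects of the cohorts were compared in 1 fit over all 22 libraries, each effect against its own normal-diet group. The MCD minus HFD difference passed for 24 of the 32 genes, 5 of them higher and 19 lower, against 16.8% and 18.5% of 16541 genes (35.3% either way), with medians of -0.80 over the 32 and 0.01 over all. The negative differences of smallest p were Pdia6 (-1.26 ± 0.19), Sdf2l1 (-2.88 ± 0.44) and Syvn1 (-2.04 ± 0.34), and the positive ones P4hb (0.76 ± 0.13), Derl1 (0.77 ± 0.15) and Edem3 (0.71 ± 0.15), with edgeR adjusted p of 2.82e-05, 4.27e-05, 0.000115, 0.000152, 0.000386 and 0.000995 in that order. Hspa5 differed by -1.20 ± 0.29, Xbp1 by -1.12 ± 0.21 and Atf6 by 0.47 ± 0.14, while Ern1 (-0.54 ± 0.25) and Eif2ak3 (-0.22 ± 0.18) did not pass. Without the 6 libraries with acinar transcripts, 1 was higher and 13 lower (13% of all genes in either direction), and with library size alone 7 were higher and 16 lower. Of all genes, 29.6% were higher and 10.7% lower with library size alone. Cohort and diet cannot be told apart beyond the use of each cohort's own normal-diet group.

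The DTMB effects of the cohorts, compared in the same fit, differed for 0 of the 32 genes and 0 of 16541 genes (0%) by edgeR. At an unadjusted p under 0.05 there were 16 of the 32 genes and 1415 of all genes, and DESeq2 called 1 of the 32, Sdf2l1 (-1.88, adjusted p = 0.00817). MCD minus HFD differences were negative for 30 of the 32 genes and 8215 of the 16541 genes, with medians of -0.37 and 0.00. The DTMB effect on HFD, positive for 31 of the 32 genes, enters with a minus sign, so these signs are not independent of it. The difference of Sdf2l1 was -1.87 ± 0.44 (edgeR adjusted p = 0.267).

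Members with an ERSE or ERSE-II in the window can be set beside the rest. Of these 11 genes, 10 were lower and 0 higher in MCD vehicle against normal-diet livers, with a median log2 fold change of -0.76 and a range of -1.91 to -0.41, where 21% of all genes were lower and 20.3% higher. Of the 16 genes with neither, 8 were lower and 4 higher, with a median of -0.24 and a range of -2.22 to 0.75. With library size alone, 2 of the 11 were lower (Pdia6 and Syvn1) and 0 higher, with a median of -0.31. On that scale 2 of the 16 were lower and 8 higher, with a median of 0.21. Of all genes, 7.3% were lower and 47.9% higher on that scale, with a median of 0.47. Sdf2l1 at the low end and P4hb at the high end of the range of the 16 genes given above both hold only the short core. With DTMB on HFD, 8 of the 11 and 5 of the 16 were higher, with medians of 0.39 and 0.22, where 6.64% of all genes were higher. By DESeq2 these counts were 8 of the 11 and 8 of the 16, and with a replicate block 5 and 3. Of all genes, 10.1% and 4.27% were higher in those 2 fits. With library size alone the counts were 3 of the 11 and 3 of the 16, where 2.6% of all genes were higher. Without the libraries with acinar transcripts they were 0 of the 11 and 0 of the 16 by edgeR, with medians of 0.37 and 0.25. In HFD vehicle against normal-diet livers, 6 of the 11 and 7 of the 16 were higher, 0 and 1 lower, with medians of 0.41 and 0.23. Of all genes, 15.2% were higher and 12.6% lower there. All of these are counts and medians with no test of a difference between the 2 sets.

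Other genes of the same pathways were described from 7 lists. In the arm of PERK and ATF4, whose targets serve amino acid supply and stress signalling, 9 of 15 genes were higher and 0 lower on the MCD diet (median 0.92), against 20.3% and 21% of all genes, led by the hormone Fgf21 (6.50 ± 0.51) and the transcription factor Atf3 (4.39 ± 0.37). Fgf21 averaged 8.46 ± 3.50 CPM in MCD vehicle livers and 0.0910 ± 0.0798 CPM in normal-diet livers (SD, n = 4 each), and Atf3 20.9 ± 10.5 and 0.993 ± 0.30 CPM. The edgeR adjusted p was 3.43e-06 for Fgf21 and 5.16e-06 for Atf3. Atf3 is also an immediate-early gene, and of 16 genes of that class 8 were higher and 0 lower in the same comparison. Counts of these mRNAs do not measure PERK itself, and its part in these changes was not tested. On HFD this arm had 4 of 15 higher and 3 lower, against 15.2% and 12.6% of all genes, with asparagine synthetase Asns lower (-3.54 ± 0.33, adjusted p = 3.36e-05) and Vldlr higher (1.08 ± 0.21), and DTMB on HFD had 2 higher, Trib3 (0.87 ± 0.19) and Atf4 (0.34 ± 0.09).

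List counts for DTMB on HFD, here and for the PERK and ATF4 arm, share the limits given for the 32 genes. Without the HFD-cohort libraries that hold acinar transcripts none of these calls was kept. Scaled by library size alone, 2.6% of all genes were higher and 15.3% lower. Further folding and oxidation genes had 10 of 34 higher and 0 lower with DTMB on HFD (median 0.15), with Mesd at 0.44 ± 0.06 and the cyclophilin Ppib at 0.44 ± 0.08. Other degradation genes had 5 of 24 higher and 0 lower, with the selenoprotein Selenos at 0.67 ± 0.09 (edgeR adjusted p = 0.00523). Translocon, signal peptidase and oligosaccharyl transferase genes had 11 of 32 higher and 0 lower (median 0.21), with Ssr4 at 0.61 ± 0.10 and Sec61g at 0.68 ± 0.13, and COPII and carrier genes 8 of 32 higher and 1 lower, with Tmed9 at 0.38 ± 0.07 and Cope at 0.37 ± 0.07. Other transducers of the response had 1 of 13 higher, Creb3 (0.36 ± 0.07). Heat shock genes from outside the endoplasmic reticulum had 1 of 17 higher, the mitochondrial Hspe1 (0.32 ± 0.10). Of all genes, 6.64% were higher in this comparison.

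In HFD vehicle against normal-diet livers the same lists had 5 of 34 folding genes higher and 1 lower, and 1 of 24 degradation genes higher and 8 lower. They had 2 of 32 translocon genes higher and 3 lower, and 2 of 32 carrier genes higher and 6 lower. Of 13 transducers 4 were higher and 2 lower, and of the 17 heat shock genes 0 passed in either direction. Of all genes, 15.2% were higher and 12.6% lower. Nploc4, a cofactor of the extraction ATPase p97, fell by 0.51 ± 0.08 on the log2 scale and Sec23a, a COPII coat protein, by 0.46 ± 0.08. On the MCD diet, folding genes had 4 of 33 higher and 11 lower, with Dnajc10 at 0.69 ± 0.10 and Ganab, a glucosidase subunit, at -0.74 ± 0.11. Degradation genes had 1 of 24 higher and 4 lower, with the ligase Rnf5 at -0.90 ± 0.10, and translocon genes 5 of 32 in each direction. Carrier genes had 7 of 32 higher and 5 lower, with Sec23a at 0.75 ± 0.10 and Ergic1 at -1.01 ± 0.12. Transducers had 3 of 13 in each direction and the heat shock genes 3 of 17 higher and 1 lower. Of all genes, 20.3% were higher and 21% lower in this comparison. Library size alone raised the median of all genes. On that scale the counts on the MCD diet were 17 higher and 1 lower for folding, 18 and 1 for degradation and 24 and 0 for translocon genes. They were 22 and 1 for carrier, 8 and 0 for transducer and 12 and 1 for the heat shock genes, where 47.9% of all genes were higher and 7.3% lower. With DTMB on the MCD diet 0 genes of any of these 7 lists passed, and the smallest p was that of the small heat shock protein Hspb1 (-0.93 ± 0.20, adjusted p = 0.919).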

How the data were processed

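Liver RNA of 22 samples was measured by polyA-selected sequencing with a stranded kit, per the labels' protocols. The deposited values are raw counts per gene, whole numbers without normalization; per the submitters' processing notes, the tools included HISAT2 2.1.0 and StringTie 2.1.3b along with Trimmomatic 0.38 and FastQC 0.11.7 (roles and order not given), with build mm10; whether counting used strand or split shared reads is not given in the sources used here, so a gene overlapped by an antisense or near-identical gene is uncertain. Of the gene IDs, 45679 matched the RefSeq table of GRCm38.p6 (98 did not), which gives all positions.

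Counts were tested in R 4.3.3 with edgeR 4.0.16 (filterByExpr, TMM factors, estimateDisp, glmQLFit and glmQLFTest), each cohort fitted alone with its 3 groups and both together for differences between cohorts. Benjamini-Hochberg adjustment ran over every gene in the fit, and calls were made at an adjusted p of 0.05. CPM is the count over the TMM-scaled library size; marker sums use total counts. SE is the coefficient over the square root of F. The members and lists were chosen with earlier results of these data known. Values in every library are given for Xbp1, Atf6, Ern1, Eif2ak3 and Hspa5 and, per comparison, for the 3 called members of smallest p in each direction, with Creld2 in the MCD cohort and Derl3 added after their values were seen; from each pathway list at most the 2 called genes of smallest p are named. Alternatives were DESeq2 1.42.0, RLE factors, library size alone, no count filter, CPM above 1 in 3 libraries, a replicate block, only the groups compared, leaving out each library, and leaving out libraries with more than 100 CPM of acinar transcripts. Replicates differed by more than sampling noise in every group (chi-square over its degrees of freedom at least 24.9). Scripts were checked on simulated counts, and figures were drawn with matplotlib 3.10.9.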

Additional observations from a re-analysis of the deposited data

Results flagged for a closer look

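In groups of 4 libraries, 12 of 128 gene and group pairs had 1 library far from the other 3 by Dixon's ratio; about 1 in 20 would be expected by chance. In HFD DTMB livers, replicate 1 was low for Dnajb11 (96.5 CPM) and Pdia3 (444 CPM). In HFD vehicle livers, P4hb was low in replicate 2 (1197 CPM) and Sel1l high in replicate 1 (190 CPM). In MCD vehicle livers, replicate 4 was high for Dnajb9 (80.9 CPM), Creld2 (66.1 CPM) and Edem1 (167 CPM), and replicate 2 low for Sec61a1 (184 CPM). In normal-diet livers of the MCD cohort, Canx was low in replicate 2 (325 CPM), Derl3 high in replicate 3 (10.4 CPM), and Derl2 (106 CPM) and Ern1 (50.01 CPM) high in replicate 4.

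The diet effect differed between the cohorts for 24 genes by the test of the difference itself (edgeR, adjusted p at most 0.05). As log2 MCD minus HFD, the chaperones and cofactors differed by -1.20 for Hspa5, -1.65 for Hyou1, -0.88 for Dnajb11, -2.88 for Sdf2l1, -1.81 for Manf, -2.10 for Creld2, -0.97 for Hsp90b1, -1.03 for Calr and -0.47 for Canx. The disulfide isomerases differed by 0.76 for P4hb, -1.12 for Pdia3, -1.48 for Pdia4 and -1.26 for Pdia6. The degradation genes differed by -1.47 for Herpud1, -0.89 for Edem1, 0.71 for Edem3, -0.71 for Sel1l, -2.04 for Syvn1, 0.77 for Derl1, -0.73 for Derl2 and -2.70 for Derl3. Sec24d differed by 0.67, Xbp1 by -1.12 and Atf6 by 0.47.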

How the results depend on the processing

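Of single-gene values that passed as reported, 2373 kept direction and call across settings, 279 no longer passed and 1 turned: Canx on the MCD diet, 0.045 by library size alone. Of those that had not passed, 60 newly passed with the same sign, 2695 stayed short of the threshold with the same sign and 96 with the opposite sign. Of the counts of members called, library size alone gave 6 for DTMB on HFD (17.9% of all genes) and 16 for the MCD diet (55.2%). Without a count filter there were 10 for DTMB on HFD (5.67%). The DTMB-effect difference between cohorts had 1 call by DESeq2 (0.23% of all genes). Without libraries with acinar transcripts there were 7 calls for HFD diet, 0 for DTMB on HFD and 14 for the diet-effect difference; the fit had fewer libraries. In the other counts each of these settings stayed within 1.5 times the count reported.

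Leaving out 1 library at a time gave 9 to 16 calls for HFD diet, 6 to 18 for DTMB on HFD and 22 to 23 for HFD DTMB against normal diet. The ranges were 21 to 25 for MCD diet, 0 for DTMB on MCD diet and 16 to 22 for MCD DTMB against normal diet. There were 22 to 25 for the diet-effect difference and 0 for the DTMB-effect difference. The shares of all genes called in these fits are not given here.

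Same-numbered libraries did not pair (correlations of deviations -0.444 to 0.339 in the HFD and -0.269 to 0.0826 in the MCD cohort). With a replicate block, DTMB on HFD had 10 calls (7.85% of all genes), HFD diet 13 (21.7%) and HFD DTMB against normal diet 23 (22.8%). MCD diet had 25 calls (38.7%), DTMB on MCD diet 0 (0%) and MCD DTMB against normal diet 19 (27.5%). The diet-effect and DTMB-effect differences had 23 (31.9%) and 0 (0%). Derl3, the gene with the lowest level per length, had the largest standard error of the 32 genes in each of the 8 comparisons.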
